A study of Mus musculus with 16 samples.

Results

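The epididymis of mice 2 days after birth was compared with that of fetuses on gestational day 18, the last stage of this series before birth. The comparison holds 6 of the 16 arrays of the series, 3 at each stage, and was chosen by stage alone. Every sample was 1 wild-type male of CD-1, an outbred mouse stock, and no 2 animals of a stage shared a mother. The fetal samples (gd18) are placed at Theiler stage 26 and the neonatal samples (pnd2) at Theiler stage 27. Both epididymides of the animal were dissected whole, frozen and made into 1 RNA sample, which went through 2 rounds of amplification before it was hybridised to an Affymetrix expression array. Dams were killed with carbon dioxide and fetuses by decapitation. How the pnd2 pups were killed is not given in the sources used here, so age, birth and the way of collection cannot be told apart. The extraction protocol named for these samples is one for whole testes. The labels give no treatment, and both stages share strain, sex, dissection and amplification.

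Sperm are carried, matured and stored in the epididymis, a single long coiled duct. It forms from the Wolffian duct under androgen, and around birth it is a growing tube of undifferentiated epithelium inside a sleeve of mesenchyme and smooth muscle, long before sperm arrive. At birth an animal also leaves the low oxygen pressure of the womb, starts to breathe and takes its first fat-rich milk. Cells sense low oxygen through HIF-1 alpha, a transcription factor that prolyl hydroxylases mark for destruction when oxygen is ample and that otherwise switches on glycolysis, glucose uptake and vessel growth factors.

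The list with the largest share of called members was that of glycolysis and low-oxygen response genes. Without 1 array of doubtful quality, pnd2 replicate 3, 13 of 34 tested members of that list fell at pnd2, where 1.16% of all genes did, and 0 rose. These samples are whole organs, so fewer cells of a type and less RNA per cell cannot be told apart here or in any later result. Of the epithelial junction and keratin genes 7 of 32 rose, and of the oxidative phosphorylation genes 6 of 66, where 1.15% of all genes did. A defensin, protease inhibitors and the retinal dehydrogenase Aldh1a1 were among the single genes that rose. The retinal dehydrogenases Aldh1a2 and Aldh1a3 fell. With all 3 pnd2 arrays, limma called 0 of 11580 genes after Benjamini-Hochberg adjustment.

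Replicate 3 of pnd2 has to be described first, since the result turns on it. Its 3' probe set for Gapdh was 63.2 times as bright as the 5' probe set, against 5.36 to 7.18 times on the other 5 arrays, and for Actb the ratio was 80.7 against 2.73 to 4.02. Amplification that starts at the 3' end of RNA leaves a high ratio when molecules are broken or copied short. What raised these ratios was not tested. The ratio was also raised for dap, at 97.0 against 9.94 to 12.6, and for phe, at 35.1 against 4.30 to 6.20. Both are probe sets for bacterial transcripts that are commonly spiked into RNA before amplification. The ratios of the spikes thr (6.88) and lys (5.11) lay within the range of the other arrays. Of the hybridisation controls, which skip amplification, bioD and cre lay within that range, bioC stood at its upper edge (1.32) and bioB was lower, at 0.714 against 0.938 to 1.28.

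**Figure D1:**
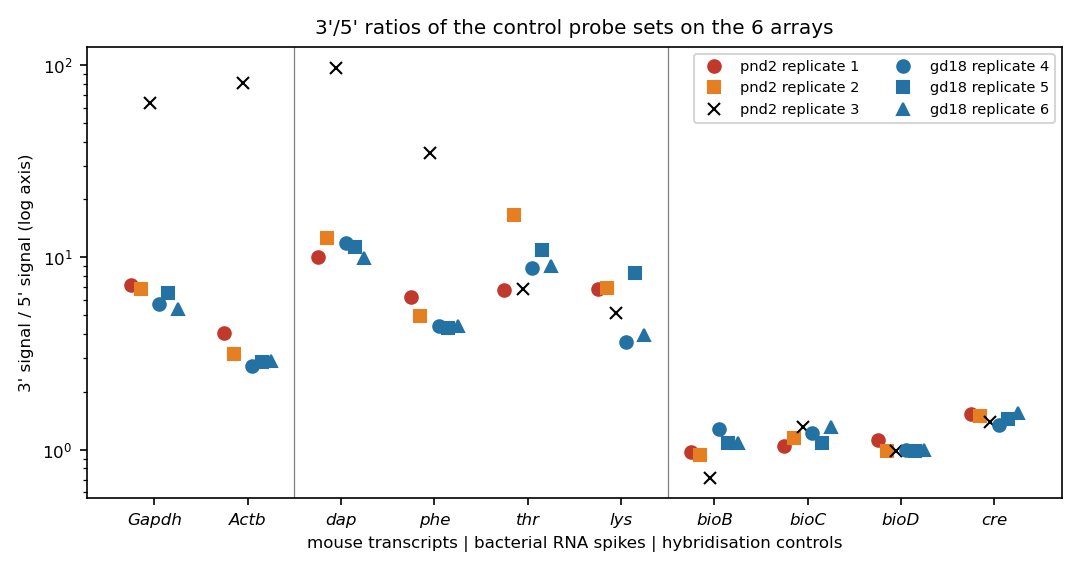
Ratio of the 3' to the 5' probe set, on a log axis, for 2 mouse transcripts, 4 bacterial spikes and 4 hybridisation controls on the 3 pnd2 and 3 gd18 arrays, 1 symbol per array. The black crosses of pnd2 replicate 3 lie far above the other 5 arrays for Gapdh, Actb, dap and phe (35.1 to 97.0) and not for thr, lys or the hybridisation controls.

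The expression values of that array stood apart too. Its mean correlation with the other 2 arrays of its stage was 0.832, and for 4209 of the 11580 genes (36.3%) it lay 2-fold or more away from the mean of replicates 1 and 2. The same count for a gd18 array against its own stage was 248 to 278. Replicates 1 and 2 of pnd2 correlated with each other at 0.972 over genes, as closely as the gd18 arrays among themselves (0.969 to 0.972), and with the gd18 arrays at 0.954 to 0.962. A second array stood apart in markers of another tissue. On pnd2 replicate 2, 25 of 31 skeletal muscle markers had their highest signal of the 6 arrays, 14 of them by 3-fold or more, and their summed signal was 21996 against 3408 to 4891 on the others. The embryonic myosin Myh3, for example, read 2532 there and at most 158 on the other 5 arrays. Of these markers 7 passed the filter, and 0 were called. What part muscle RNA had in the results was not tested, apart from leaving that array out.

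Signals were compared as log2(signal + 16), where signal is the deposited linear intensity of a probe set on arrays scaled to a common mean. A gene is called, and said to rise or fall, at an adjusted p under 0.05 over all 11580 genes. The 3 arrays of gestational day 16 (gd16, single wild-type CD-1 males as well) entered the fit only to help estimate the spread between animals. With all 9 arrays, 1499 genes (12.9%) had an unadjusted p under 0.05, 784 of them higher at pnd2 and 715 lower, and the smallest adjusted p was 0.0519, for Flt1, Pzp and Spin2c. Without pnd2 replicate 3, 267 genes (2.31%) were called, 133 higher (1.15%) and 134 lower (1.16%), and 98 of them changed at least 2-fold (0.846% of all genes, 50 higher and 48 lower). When each array was scaled to its median, the same fit called 182 genes higher and 66 lower. These calls rest on 2 neonatal arrays. Without pnd2 replicate 2 as well, which leaves 1 neonatal array whose spread is taken from the other stages, 19 genes were called, and without replicates 1 and 3 there were 54. Leaving out gd18 replicate 4, 5 or 6 gave 160, 123 or 73. Below, a log2 change is pnd2 replicates 1 and 2 (n = 2) minus gd18 (n = 3) with its standard error unless all pnd2 arrays are named, and adjusted p-values are limma's. The value with all arrays (limma's fit to all 9) stands beside it, and no gene was called there. Fetal arrays or values are those of gd18 only, unless another stage is named.

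Replicate 3 of pnd2 lay mostly on the same side. Of the 133 genes called higher without it, its signal was above all 3 gd18 arrays for 87 (65.4%), below all of them for 24 and between them for 22. Of the 134 called lower it was below all gd18 arrays for 104 (77.6%), above for 21 and between for 9. Over all genes tested it was above the gd18 arrays for 37.9% and below for 46.6%. The called genes were picked with the same gd18 arrays. That alone tilts replicate 3 to the called side, so these shares are no independent check. All 3 pnd2 arrays were above the 3 gd18 arrays for 1245 genes (10.8%) and below them for 1239 (10.7%).

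**Figure D2:**
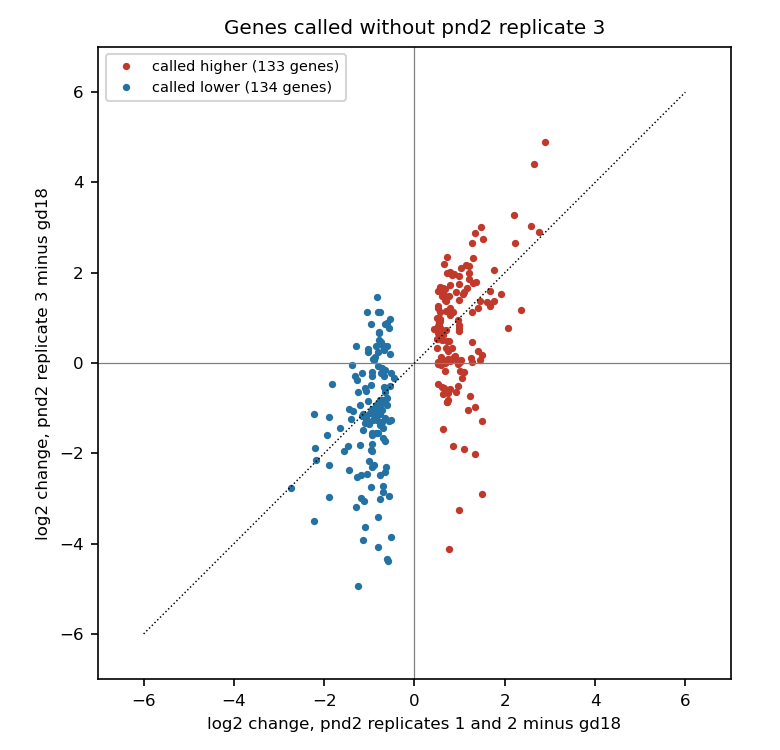
Each point is 1 of the 267 genes called without pnd2 replicate 3. The horizontal axis gives the log2 change of replicates 1 and 2 against gd18 and the vertical axis that of replicate 3 alone, with equal change on the dotted line. Most points lie in the lower left and upper right (104 of 134 and 87 of 133 beyond all gd18 arrays), with a spread on the vertical axis much wider than on the horizontal one.

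Of the glycolytic enzymes 5 passed the test, and all 5 fell. Ldha, the subunit that turns pyruvate into lactate, read 9827, 6558 and 3265 on pnd2 replicates 1, 2 and 3 and 18524, 18354 and 18190.1 on gd18 replicates 4, 5 and 6. Its 3 fetal values were nearly equal and all neonatal values lay well below them. The log2 change was -1.19 ± 0.18 (adjusted p = 0.0096), and -1.62 (adjusted p = 0.154) with all pnd2 arrays. Pgam1, which moves the phosphate of phosphoglycerate, read 3663, 3216 and 3161 at pnd2 and 6506, 6379 and 7533 at gd18. Here replicate 3 lay close to the other pnd2 arrays, and the change was -0.98 ± 0.16 (adjusted p = 0.014) without it and -1.02 (adjusted p = 0.110) with it. Aldolase A (Aldoa, -1.12 ± 0.22), the liver-type phosphofructokinase subunit Pfkl (-1.24 ± 0.20) and triosephosphate isomerase (Tpi1, -0.70 ± 0.14) fell as well. On replicate 3 these 3 genes were a further step down, Pfkl at 113 against 1672 and 1648 on its stage mates. Their all-array changes were -1.76, -2.47 and -1.41, at adjusted p = 0.246, 0.319 and 0.324. The log2 changes of Pgk1 (-0.49 ± 0.12, adjusted p = 0.057) and Pkm (-0.59 ± 0.15, adjusted p = 0.064) missed the threshold, and those of Hk1, Hk2, Pfkm and Pfkp had adjusted p-values from 0.337 to 0.886. Ldhb, the subunit of tissues that burn lactate, had a change of 0.28 ± 0.12 (adjusted p = 0.233). Several of these enzymes have processed pseudogenes, which the probe sets may also bind.

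Glucose transporters and a kinase that limits the use of pyruvate in mitochondria followed the same direction. Slc2a1 read 1495, 1137 and 1322 at pnd2 and 2541, 2741 and 3536 at gd18, with no overlap of the stages. Its change was -1.15 ± 0.24 (adjusted p = 0.034), and the all-array change was -1.14 (adjusted p = 0.183). Slc2a3, a transporter with high affinity, changed by -0.95 ± 0.19 (adjusted p = 0.028; all arrays -0.97, adjusted p = 0.173). Pdk1, the kinase that shuts pyruvate dehydrogenase, read 821, 921 and 2236 at pnd2 and 2778, 2351 and 1877 at gd18. Replicates 1 and 2 were far below gd18, while replicate 3 lay inside the fetal range, the only 1 of the 13 called members for which it was not below all gd18 arrays. The change of Pdk1 was -1.39 ± 0.19 (adjusted p = 0.0075) without that array and -0.94 (adjusted p = 0.355) with it.

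Other members of the list mark the low-oxygen response without belonging to glycolysis. Ankrd37, an ankyrin repeat protein known as a HIF target, read 145, 117 and 168 on pnd2 replicates 1, 2 and 3 and 475, 447 and 750.0 on gd18 replicates 4, 5 and 6. Every neonatal value was far below every gd18 one, a log2 change of -1.93 ± 0.27 (adjusted p = 0.0075) and of -1.82 (adjusted p = 0.068) with all arrays. Earlier stages lay below gd18 and above pnd2. Ankrd37 read 235 to 369 at gd16, and 180 to 242 and 197 to 269 on the pooled arrays of gestational days 12 and 14. Egln3, the prolyl hydroxylase that is itself induced by HIF and restrains it, read 244, 269 and 316 at pnd2 and 533, 600.4 and 972 at gd18 and changed by -1.35 ± 0.27 (adjusted p = 0.031; all arrays -1.26, adjusted p = 0.185). The stages did not overlap. P4ha1 (-1.30 ± 0.22) and P4ha2 (-1.06 ± 0.22), catalytic subunits of collagen prolyl hydroxylase, fell, as did stanniocalcin 2 (Stc2, -1.19 ± 0.18). For these 3 the adjusted p was 0.015, 0.034 and 0.0096, and with all arrays the changes were -1.93, -1.52 and -1.80 at adjusted p = 0.201, 0.207 and 0.201. The transcripts of the factor itself did not pass the test. Hif1a read 4418, 4309.9 and 8034 at pnd2 and 6158, 6301 and 6159 at gd18, replicates 1 and 2 below the fetal arrays and replicate 3 above them, with a change of -0.51 ± 0.13 (adjusted p = 0.061). Its relative Epas1 had a change of -0.51 ± 0.15 (adjusted p = 0.106). HIF activity is set mainly by protein stability, which arrays do not measure. Vegfa (-0.96 ± 0.31), Adm (-0.67 ± 0.22) and Bnip3 (-1.08 ± 0.26) did not pass, at adjusted p = 0.136, 0.142 and 0.059.

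Over the 34 tested members the median log2 change was -0.82 without pnd2 replicate 3 and -0.96 with it, against 0.01 and -0.05 over all genes. Replicates 1 and 2 were both below all gd18 arrays for 25 members, as for 17.3% of all genes, and 13 of 34 (38.2%) were called lower where 1.16% of all genes were. The median stayed below 0 under quantile normalization (-0.85) and median centring (-0.73). With the same arrays, 2 members were called lower without the trend in limma's variance and 4 at adjusted p under 0.01. The number called was 2 without pnd2 replicate 1, 0 without replicate 2 and 5 without gd18 replicate 6.

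**Figure D3:**
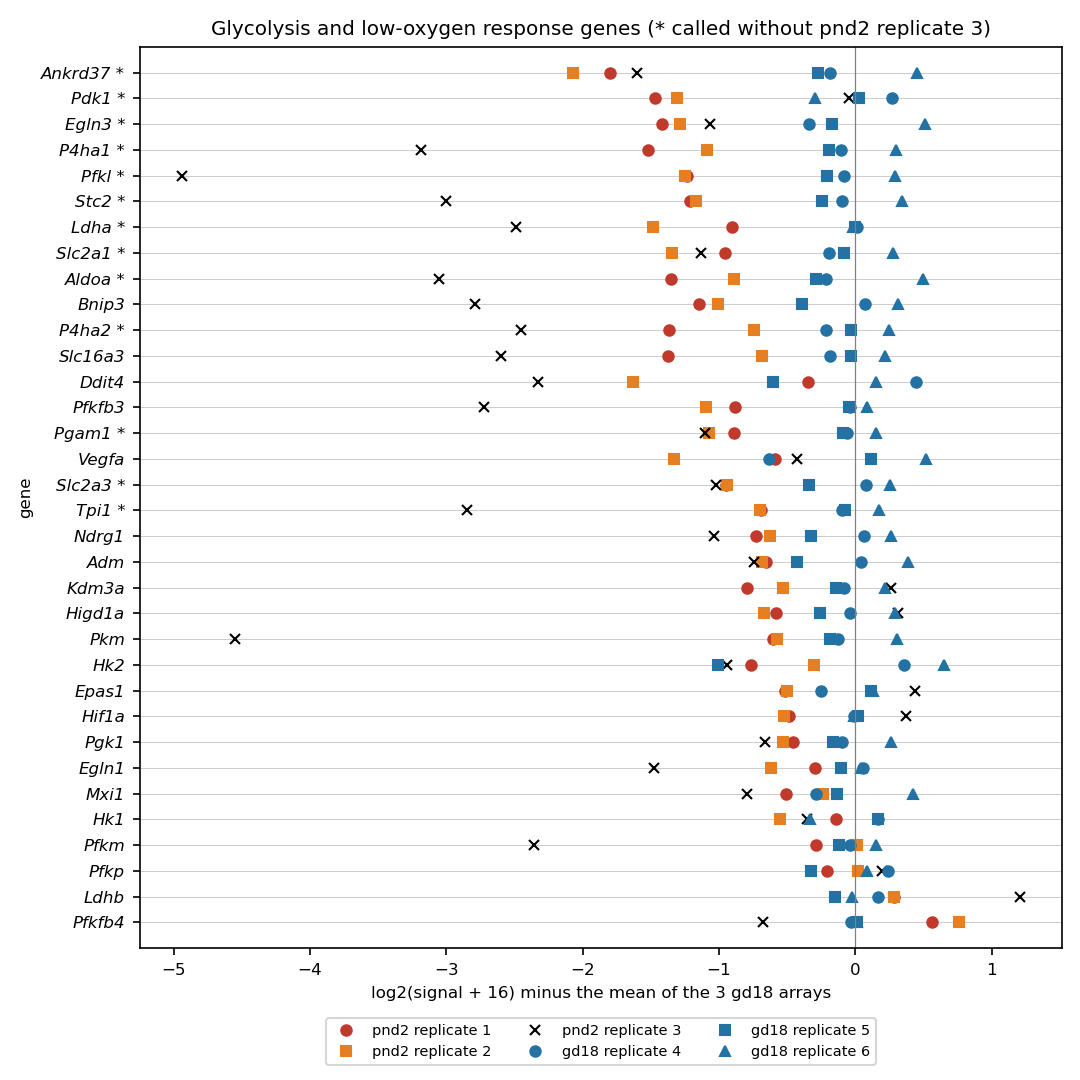
The 34 tested members of the glycolysis and low-oxygen list, ordered by change, with the log2(signal + 16) of each array minus the mean of the 3 gd18 arrays. Red circles and orange squares (pnd2 replicates 1 and 2) lie left of all blue gd18 symbols for 25 genes, and asterisks mark the 13 called. Black crosses (replicate 3) lie far to the left for Pfkl, Pkm, P4ha1 and Aldoa and inside the gd18 range for Pdk1.

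The promoters of the falling genes are shown because HIF binds a short core, ACGTG or GCGTG, in the genes it induces. Of the 13 called members, 12 had an entry among the RefSeq promoters (GRCm38.p6), with 16 promoters. The 250 bases before each start were searched on both strands for ACGTG and GCGTG. Matches to ACGTG include the E-box CACGTG, which other factors bind. At least 1 match was found for 11 of the 12 genes (91.7%), for 19 of 19 list members not called and for 62.1% of the genes tested. By promoter the shares were 13 of 16 (81.2%) for called members, 23 of 30 (76.7%) for members not called, 55.8% of 11992 for the genes tested and 38.6% of all 32851. A match is a description of the letters and not a binding site. The 3 members of the list with the largest falls without pnd2 replicate 3, and Ldha, are printed, 5′ to 3′ along the gene, with matches in capitals.
Ankrd37, chr8:45999851-46000100, - strand: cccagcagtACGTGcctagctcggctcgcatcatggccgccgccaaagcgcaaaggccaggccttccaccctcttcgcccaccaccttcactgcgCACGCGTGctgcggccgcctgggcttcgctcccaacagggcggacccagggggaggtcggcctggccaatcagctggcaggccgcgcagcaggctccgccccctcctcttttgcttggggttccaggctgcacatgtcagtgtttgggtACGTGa
Pdk1, chr2:71872974-71873223, + strand: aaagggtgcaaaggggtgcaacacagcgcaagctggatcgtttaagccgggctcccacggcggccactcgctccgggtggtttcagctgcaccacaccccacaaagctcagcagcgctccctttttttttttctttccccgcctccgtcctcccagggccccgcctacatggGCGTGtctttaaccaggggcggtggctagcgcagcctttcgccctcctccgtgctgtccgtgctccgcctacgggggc
Egln3, chr12:54203875-54204124, - strand: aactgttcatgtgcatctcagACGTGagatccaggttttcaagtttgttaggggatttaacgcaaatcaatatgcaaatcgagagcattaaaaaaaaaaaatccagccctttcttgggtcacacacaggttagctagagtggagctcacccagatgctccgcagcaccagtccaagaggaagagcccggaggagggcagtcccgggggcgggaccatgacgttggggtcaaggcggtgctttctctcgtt
Ldha, chr7:46845554-46845803, + strand: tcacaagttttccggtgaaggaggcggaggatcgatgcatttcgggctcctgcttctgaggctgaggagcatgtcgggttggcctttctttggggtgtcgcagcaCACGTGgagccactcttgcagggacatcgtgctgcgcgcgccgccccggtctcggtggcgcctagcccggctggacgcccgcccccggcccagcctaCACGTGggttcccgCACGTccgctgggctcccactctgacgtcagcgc
Ankrd37 carries 4 matches, of which GCGTG and its reverse complement overlap in CACGCGTG. Ldha carries 5, since CACGTG, present at 2 places, reads as ACGTG on either strand. Pdk1 and Egln3 have 1 match each in these 250 bases. Pdk1 and Ldha each have another listed promoter further along, not printed.

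The respiratory chain genes that passed the test rose by small amounts. Of 66 tested members 6 rose (9.09%, background 1.15%) and 0 fell, and replicates 1 and 2 were above all gd18 arrays for 38, against 20.3% of all genes. The median change was 0.25, and 0.40 with all pnd2 arrays. Cytochrome c (Cycs), which carries electrons between complexes III and IV, read 8286, 9009.9 and 14179 at pnd2 and 5387, 6452 and 4557 at gd18. All neonatal values exceeded all fetal ones, with a change of 0.67 ± 0.14 (adjusted p = 0.032; all arrays 0.91, adjusted p = 0.201). The other 5 are subunits of complex I, which takes electrons from NADH. They were Ndufb9 (0.65 ± 0.12, all arrays 1.16), Ndufs4 (0.63 ± 0.14, all arrays 0.19), Ndufb7 (0.51 ± 0.11, all arrays 0.62), Ndufs8 (0.50 ± 0.11, all arrays 0.44) and Ndufa1 (0.44 ± 0.10, all arrays 0.54), at adjusted p-values of 0.022 to 0.049. On replicate 3 Ndufb9 read 16878 against 5626 and 5900.3 on its stage mates, while Ndufs4 read 922, below all gd18 arrays. With all arrays the adjusted p-values of these 5 ran from 0.201 to 0.777. These calls were thin: 1 member was called under quantile normalization and 0 without pnd2 replicate 1, without pnd2 replicate 2 or without gd18 replicate 6.

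Among the fatty acid oxidation and ketone genes, 2 of 24 rose. Angptl4, a secreted inhibitor of lipoprotein lipase that fatty acids and fasting induce, read 629, 872 and 619 on pnd2 replicates 1, 2 and 3 and 253, 219 and 226 on gd18 replicates 4, 5 and 6. Every neonatal value lay well above every gd18 one, with a change of 1.61 ± 0.20 (adjusted p = 0.0067) and 1.52 (adjusted p = 0.068) with all arrays. Earlier fetal stages were higher than gd18. Angptl4 read 349 to 434 at gd16, and 684 to 987 and 551 to 804 on the pooled arrays of gestational days 12 and 14. Cpt1a, which admits long-chain fatty acids to mitochondria, read 1041, 1277 and 573 at pnd2 and 499, 595 and 607 at gd18 and changed by 1.01 ± 0.20 (adjusted p = 0.031; all arrays 0.68, adjusted p = 0.395). Its value on replicate 3 lay inside the fetal range. The desaturases Scd1 (-0.93 ± 0.15, all arrays -1.04) and Scd2 (-0.52 ± 0.11, all arrays -0.77), which make monounsaturated fat, fell at adjusted p = 0.014 and 0.033. Adipocyte genes as a list had 1 member higher and 2 lower of 19, and their summed signal was 43116 to 45453 at pnd2 and 48921 to 51435 at gd18.

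Epithelial adhesion, junction and keratin genes held the largest share of rises of any list. Of 32 tested members 7 rose (21.9%, background 1.15%) and 0 fell. Replicates 1 and 2 exceeded all gd18 arrays for 18, against 20.3% of all genes. Cdh16, a cadherin of kidney and Wolffian epithelium, read 7396, 8824 and 2729 on pnd2 replicates 1, 2 and 3 and 4574, 4025 and 4169 on gd18 replicates 4, 5 and 6. Replicates 1 and 2 were clearly above the fetal arrays and replicate 3 clearly below them. The change was 0.92 ± 0.14 (adjusted p = 0.0093) without that array and 0.40 (adjusted p = 0.582) with it. The tight junction claudin Cldn3 read 604, 692 and 49.3 at pnd2 and 224, 252 and 266 at gd18, with the same split, and its change went from 1.33 ± 0.23 (adjusted p = 0.017) to 0.22 (adjusted p = 0.890). The desmosomal cadherin Dsg2 read 2175, 1645 and 1567 at pnd2 and 920.0, 979 and 938 at gd18, above gd18 on every neonatal array, and changed by 0.99 ± 0.19 (adjusted p = 0.029; all arrays 0.90, adjusted p = 0.201). Gja1, the gap junction connexin 43, was the other of the 7 for which replicate 3 lay above all gd18 arrays (0.57 ± 0.13, adjusted p = 0.048; all arrays 0.71, adjusted p = 0.201). Simple-epithelium keratins Krt7 (0.72 ± 0.15, all arrays 0.20) and Krt18 (0.68 ± 0.15, all arrays 0.39) and the adhesion molecule Epcam (0.69 ± 0.16, all arrays 0.47) completed the group, at adjusted p = 0.033, 0.039 and 0.049. Krt8 (0.63 ± 0.16, adjusted p = 0.069) and Cdh1 (0.73 ± 0.19, adjusted p = 0.069) did not pass, and Krt14, a keratin of basal cells, had a change of -0.80 ± 0.30 (adjusted p = 0.178). The list's median change was 0.51, and 0.23 with all pnd2 arrays. Replicate 3 was below all gd18 arrays for 16 of the 32 members and above them for 9. The summed signal of the list, which weighs bright genes most, was 76365 to 85630.3 at pnd2 against 55477 to 60899 at gd18. Its mean log2(signal + 16) was 10.29, 10.32 and 9.70 on pnd2 replicates 1, 2 and 3 and 9.89 to 10.01 at gd18, so replicate 3 lay below gd18 there. The count fell to 1 without pnd2 replicate 1, 0 without replicate 2, 2 or 3 without any 1 gd18 array, and 2 in a fit with all 15 epididymis arrays.

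Transcription factors of the epithelium gave 2 rises among 14. Ehf, an ETS factor of ductal epithelia, read 1489, 1435 and 2469 at pnd2 and 747, 712 and 719 at gd18 and rose by 0.99 ± 0.19 (adjusted p = 0.025; all arrays 1.24, adjusted p = 0.157). The stages did not overlap. Tfap2a, an AP-2 factor, rose by 1.10 ± 0.23 (adjusted p = 0.033; all arrays 1.26, adjusted p = 0.152). Wolffian duct and mesonephros regulators had 0 of 16 called, at a median change of 0.14. Among them Emx2, a homeobox factor needed for the urogenital ducts, read 2182, 2377 and 5116 at pnd2 and 1424, 1733 and 1574 at gd18, with a change of 0.53 ± 0.13 (adjusted p = 0.062). Pax8 read 121, 183 and 97.1 at pnd2 and 126, 161 and 127 at gd18, with overlap of the stages. Ret did not pass the filter.

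Secretory and defence genes included some of the largest rises. Defb29, a beta-defensin, the family of antimicrobial peptides that the epididymis secretes, read 3699.9, 4095 and 8120.1 on pnd2 replicates 1, 2 and 3 and 585, 1110.5 and 868 on gd18 replicates 4, 5 and 6. Every neonatal value was more than 3 times every fetal one. Its change of 2.21 ± 0.27 (adjusted p = 0.0067) became 2.57 (adjusted p = 0.068) with all arrays, and at gd16 it had read 73.0 to 129. Lcn2, a lipocalin that withholds iron from bacteria, read 4626, 6803 and 4932 at pnd2 and 2066, 1962 and 2347 at gd18 and rose by 1.40 ± 0.32 (adjusted p = 0.049; all arrays 1.34, adjusted p = 0.207). These were 2 of the 14 tested epididymal secreted proteins. Of the 51 genes on that list 35 were on the array, and 17 of those were below the array median on all 6 arrays, among them Adam7 and Lcn5, which mark the adult duct. Gpx5, the adult glutathione peroxidase, was also below the filter, at 19.7 to 83.8 at pnd2. Complement genes had 1 of 24 higher, which was Lcn2 again.

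Of the protease inhibitors, 2 of 24 rose. Wfdc15b, of the WAP four-disulfide family, read 1527, 1973 and 5036 at pnd2 and 715, 708 and 607 at gd18, all neonatal values above all fetal ones, and changed by 1.34 ± 0.19 (adjusted p = 0.0082; all arrays 1.85, adjusted p = 0.157). Spint2, a Kunitz inhibitor of epithelial serine proteases, changed by 0.70 ± 0.15 (adjusted p = 0.035; all arrays 0.71, adjusted p = 0.202). Spink12, a Kazal-type inhibitor outside that list, was among the largest rises of all. It read 1311, 1691 and 5110.1 on pnd2 replicates 1, 2 and 3 and 138, 340.3 and 234 on gd18 replicates 4, 5 and 6, so each neonatal array exceeded each fetal one by at least 3-fold. The change was 2.65 ± 0.36 (adjusted p = 0.0075), and 3.24 (adjusted p = 0.068) with all arrays. Pzp, a broad inhibitor of the alpha-2-macroglobulin family, read 996, 585 and 847 at pnd2 and 85.6, 98.8 and 117 at gd18 and rose by 2.75 ± 0.42 (adjusted p = 0.0096). It had one of the 3 smallest adjusted p-values with all arrays (2.80, adjusted p = 0.052).

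With the constant of 16, the 15 genes named as higher changed 2.85-fold to 7.45-fold, and the 3 pnd2 arrays lay above the 3 gd18 arrays for all 15, which the rule for naming them required. Car3, a carbonic anhydrase of fat and muscle, read 276, 382 and 1349 at pnd2 and 23.2, 35.2 and 31.8 at gd18, a change of 2.90 ± 0.48 (adjusted p = 0.014; all arrays 3.56, adjusted p = 0.068). Of replicates 1 and 2 it was higher on replicate 2, the array with muscle markers, and without pnd2 replicates 2 and 3 its change was 2.67 (adjusted p = 0.127). Its gd18 signals were far below the array medians, so the size of the change depends on the constant, at 2.05 with 64 and 3.41 with 1 in place of 16. Tnnt2, the cardiac troponin T, read 679, 1698 and 465 at pnd2 and 152, 298 and 168 at gd18 and was highest on that array. Its change was 2.35 ± 0.41 (adjusted p = 0.017), 1.96 (adjusted p = 0.201) with all arrays and 1.70 (adjusted p = 0.128) without pnd2 replicates 2 and 3. On that array the 31 skeletal muscle markers summed to 21996.

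Regucalcin and a spindlin were the steadiest rises. Rgn, a calcium-binding enzyme of vitamin C synthesis, read 1693, 1398 and 1174 on pnd2 replicates 1, 2 and 3 and 406, 386 and 405 on gd18 replicates 4, 5 and 6. The fetal values were almost equal, and the change was 1.91 ± 0.24 (adjusted p = 0.0067; all arrays 1.78, adjusted p = 0.068). Spin2c, a member of the spindlin family with close copies in the genome, read 5049.8, 4518 and 3642 at pnd2 and 1348, 1492 and 1337 at gd18 and rose by 1.77 ± 0.15 (adjusted p = 0.00088; all arrays 1.64, adjusted p = 0.052). Of the 15 these 2 were the only ones still called in the fit without replicate 3 when pnd2 replicates 1 and 2 and gd18 replicates 4, 5 and 6 were each left out in turn. The others not described elsewhere were the neuropeptide Y receptor gene Npy6r (2.58 ± 0.41, all arrays 2.73), the matrix-associated signalling protein Ccn3 (2.23 ± 0.45, all arrays 2.37), the transcriptional repressor Nacc1 (2.08 ± 0.32, all arrays 1.65), the pseudogene Znf41-ps (1.67 ± 0.30, all arrays 1.65), the microfibril protein Mfap5 (1.67 ± 0.22, all arrays 1.54) and the BMP antagonist Chrdl1 (1.51 ± 0.30, all arrays 1.93).

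Of 29 smooth muscle genes tested, 2 rose and 1 fell, where 1.15% and 1.16% of all genes did. Replicates 1 and 2 were above all gd18 arrays for 14 of the 29, against 20.3% of all genes. Myl9, the regulatory light chain of smooth muscle myosin, read 4153, 5106 and 2311 at pnd2 and 2274, 2561 and 2205 at gd18 and changed by 0.97 ± 0.14 (adjusted p = 0.0082; all arrays 0.64, adjusted p = 0.380). On replicate 3 it lay within the fetal range, and it was highest on replicate 2, the array with the skeletal muscle markers, whose part in this value was not tested. Synpo2, an actin-bundling protein, rose by 1.21 ± 0.24 (adjusted p = 0.031; all arrays 1.52, adjusted p = 0.157). Acta2, the smooth muscle actin and among the brightest signals, read 38629, 40144 and 39464 at pnd2 and 31781, 29772 and 32009 at gd18, a separation of the stages with a change of 0.34 ± 0.10 that did not pass (adjusted p = 0.091). The member that fell was Ptn (-0.46 ± 0.10, all arrays -0.42), the secreted growth factor pleiotrophin, which is no part of the contractile apparatus. The list's median was 0.30, but -0.03 with all pnd2 arrays. In the extracellular matrix list 2 of 66 rose, Mfap5 and the proteoglycan fibromodulin (Fmod, 0.86 ± 0.17, all arrays 0.95), and 1 fell. That was Col8a1, a short-chain collagen of vessels and membranes, which read 421, 318 and 428 at pnd2 and 1549, 908 and 1196 at gd18 and changed by -1.66 ± 0.23 (adjusted p = 0.0075; all arrays -1.59, adjusted p = 0.068).

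Of the matrix proteases, 3 of 24 fell, and on each of the 3 genes all neonatal arrays were below all fetal ones. Adamts1, which cleaves proteoglycans, read 3176, 2856 and 2794 on pnd2 replicates 1, 2 and 3 and 5602, 5764 and 6423 on gd18 replicates 4, 5 and 6, a change of -0.97 ± 0.13 (adjusted p = 0.0075) and of -1.01 (adjusted p = 0.068) with all arrays. The 3 values within each stage were close. The related Adamts15 changed by -0.83 ± 0.18 (adjusted p = 0.042; all arrays -0.90, adjusted p = 0.185). Tll1, a tolloid protease that frees BMPs from their antagonists, read 63.1, 51.3 and 41.0 at pnd2 and 285, 257 and 229 at gd18 and changed by -1.90 ± 0.35 (adjusted p = 0.023; all arrays -2.02, adjusted p = 0.068).

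Of the endothelial genes, 3 of 31 fell and 0 rose. Flt1, a receptor and decoy for VEGF, read 191, 199 and 146 on pnd2 replicates 1, 2 and 3 and 592, 602 and 632 on gd18 replicates 4, 5 and 6. The stages lay far apart, with little spread within either. Its change of -1.56 ± 0.17 (adjusted p = 0.0061) was -1.69 (adjusted p = 0.052) with all arrays, and it was still called when pnd2 replicates 1 and 2 and gd18 replicates 4, 5 and 6 were each left out in turn. As a mean over its probe sets the change was -1.04 and did not pass. Icam2, an adhesion molecule of endothelium, read 87.1, 173 and 92.4 at pnd2 and 441, 340.4 and 348 at gd18 and changed by -1.48 ± 0.28 (adjusted p = 0.023; all arrays -1.60, adjusted p = 0.110), and the main VEGF receptor Kdr changed by -0.63 ± 0.15 (adjusted p = 0.049; all arrays -1.18, adjusted p = 0.320). Pan-endothelial Cdh5 (0.04 ± 0.25, adjusted p = 0.956) and Pecam1 (-0.22 ± 0.62, adjusted p = 0.892) did not pass, nor did Tek (-0.28 ± 0.26) and Eng (-0.30 ± 0.18). Lymphatic Lyve1 had a change of 1.01 ± 0.26 (adjusted p = 0.067). The list's median was -0.35, and its summed signal 18220.0 to 21666 at pnd2 and 22659.8 to 25261 at gd18. Erythroid genes, a measure of blood left in the organ, had 0 of 12 called and a summed signal of 6017 to 7536 at pnd2 against 7126 to 11038 at gd18. Their median change was -0.35, and -0.42 with all pnd2 arrays. The mean log2(signal + 16) of the 12 was 7.40 to 7.68 at pnd2 and 7.97 to 8.44 at gd18, without overlap.

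Of 23 imprinted growth genes 3 fell and 0 rose, with a median of -0.22. Dlk1, a Notch-related ligand that restrains differentiation, read 5045, 3769 and 2219 at pnd2 and 7916, 8635 and 8866 at gd18, no neonatal value reaching a fetal one, and changed by -0.95 ± 0.13 (adjusted p = 0.0075; all arrays -1.28, adjusted p = 0.152). Igf2, the fetal insulin-like growth factor, read 13248, 13247 and 1313 at pnd2 and 19484, 18605 and 19256 at gd18. Its change was -0.53 ± 0.10 (adjusted p = 0.026) without replicate 3, whose signal lay far below its mates, and -1.63 (adjusted p = 0.384) with it. Mest changed by -0.65 ± 0.14 (adjusted p = 0.039; all arrays -1.23, adjusted p = 0.319), while Meg3, a non-coding RNA of the Dlk1 domain, had a change of -0.63 ± 0.15 that did not pass (adjusted p = 0.053). Under median centring the list's median with all pnd2 arrays turned to 0.02, where that of all genes tested was 0.20. Hmga2, a chromatin protein of fetal growth, read 1041, 664 and 825 at pnd2 and 2089, 1885 and 1717 at gd18 and changed by -1.17 ± 0.19 (adjusted p = 0.013; all arrays -1.17, adjusted p = 0.110). With Sox11 (-0.95 ± 0.16, all arrays -0.70) it made 2 of 14 in its list. The stanniocalcins Stc1 and Stc2 were the 2 of 24 IGF and insulin pathway genes that fell. Cell division genes had 0 of 73 called, with a median of 0.06, and cell cycle inhibitors 1 of 28, the Myc antagonist Mxd4 (0.71 ± 0.12, all arrays 0.19).

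Few hormone and clock genes passed the test. Steroid receptors and androgen metabolism had 0 of 16 called. Esr1, the estrogen receptor alpha, had a change of 0.04 ± 0.22 and the glucocorticoid receptor Nr3c1 of -0.03 ± 0.12, at adjusted p = 0.955 and 0.922. Among 30 glucocorticoid response genes 3 rose and 2 fell. Mt2, a metal-binding protein, read 4785, 3447 and 5038 at pnd2 and 1932, 982 and 884 at gd18 and rose by 1.76 ± 0.34 (adjusted p = 0.026; all arrays 1.86, adjusted p = 0.122), next to Angptl4 and Lcn2. The phosphatase Dusp1 (-0.74 ± 0.17, all arrays -0.57) and Hif3a (-1.09 ± 0.16, all arrays -1.94), a relative and inhibitor of HIF-1 alpha, fell at adjusted p = 0.046 and 0.0093. The changes of the classical targets Fkbp5 (-0.11 ± 0.20), Tsc22d3 (-0.01 ± 0.18) and Per1 (-0.31 ± 0.19) did not pass. Nr1d2, a repressor of the circadian loop, read 1834, 1585 and 4454 at pnd2 and 838, 711 and 564 at gd18 and rose by 1.27 ± 0.19 (adjusted p = 0.0096; all arrays 1.73, adjusted p = 0.157), as 1 of 19 clock genes. Time of day is not given for either stage. Of 23 immediate early genes only Dusp1 passed, and replicates 1 and 2 were below all gd18 arrays for 12 of them, against 17.3% of all genes.

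Retinal dehydrogenases, which make retinoic acid, changed in both directions. Aldh1a1 read 11471, 12286 and 16035 on pnd2 replicates 1, 2 and 3 and 5292, 4420.2 and 4137 on gd18 replicates 4, 5 and 6, every neonatal value above every fetal one, and changed by 1.37 ± 0.28 (adjusted p = 0.031; all arrays 1.51, adjusted p = 0.142). Its near-identical neighbour Aldh1a7 changed by 0.99 ± 0.23 (adjusted p = 0.0498; all arrays 1.30, adjusted p = 0.201), and the probe sets may not tell the 2 apart. Aldh1a3 read 140.5, 176 and 339 at pnd2 and 438, 458 and 363 at gd18 and changed by -1.32 ± 0.22 (adjusted p = 0.016; all arrays -0.98, adjusted p = 0.314), and Aldh1a2, an enzyme of mesenchyme, by -0.55 ± 0.11 (adjusted p = 0.033; all arrays -0.54, adjusted p = 0.207). The monooxygenase Fmo2 (1.19 ± 0.22, all arrays 0.45) and superoxide dismutase Sod1 (0.52 ± 0.11, all arrays 0.35) rose. Together 4 of 37 members of this metabolic list rose and 2 fell.

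Signalling genes fell in small numbers. In the Notch pathway 2 of 17 fell, the ligand Jag1 (-1.04 ± 0.19, all arrays -0.61) and the target Nrarp, which read 472, 434 and 518 at pnd2 and 916, 929.9 and 988 at gd18 and changed by -1.04 ± 0.18 (adjusted p = 0.019; all arrays -0.97, adjusted p = 0.172). For Jag1 replicate 3 lay inside the fetal range. In the TGF-beta and BMP list Tgfb2 (-0.71 ± 0.14, all arrays -1.38) and the antagonist Sostdc1 (-1.26 ± 0.23, all arrays -0.97) fell and Chrdl1 rose, of 38. Pdgfrb (-0.65 ± 0.14, all arrays -0.14) and Fgf13 (-0.77 ± 0.17, all arrays -0.14) were the 2 of 31 in the FGF and EGF list, and for both replicate 3 lay above all fetal arrays. The Wnt pathway had 0 of 45 called and the Hedgehog pathway 0 of 11.

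With the same constant, the 15 genes named as lower changed 2.47-fold to 6.65-fold. Hdc, which makes histamine, read 11.9, 9.53 and 9.90 at pnd2 and 206, 194 and 104 at gd18, near the floor on every neonatal array, and changed by -2.73 ± 0.50 (adjusted p = 0.023; all arrays -2.75, adjusted p = 0.068). Its change also depends on the constant, at -1.60 with 64 and -3.79 with 1. Ppp1r3c, which steers protein phosphatase 1 to glycogen, read 2285, 1989 and 1117 on pnd2 replicates 1, 2 and 3 and 5163, 5313 and 7337 on gd18 replicates 4, 5 and 6. It was bright at both stages without overlap, at a change of -1.45 ± 0.17 (adjusted p = 0.0067) and of -1.76 (adjusted p = 0.068) with all arrays. Ak4, a mitochondrial adenylate kinase (-1.45 ± 0.24, all arrays -1.30), the ceramidase Acer2 (-2.17 ± 0.39, all arrays -2.16) and the chondroitin synthase Chsy3 (-1.40 ± 0.26, all arrays -1.35) followed. Ankrd37 and P4ha1 are members of the low-oxygen list. Prmt8 (-1.90 ± 0.34, all arrays -2.25), Sfi1 (-2.23 ± 0.47, all arrays -2.66), Ankrd34a (-2.23 ± 0.43, all arrays -1.86) and Tac2 (-1.89 ± 0.40, all arrays -1.66), the precursor of neurokinin B, were dim at both stages, with every signal at or under 293. Tll1, Col8a1, Flt1 and Icam2 are given above. Flt1 was the only 1 of the 15 still called when those 5 pnd2 and gd18 arrays were each left out in turn.

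**Figure D4:**
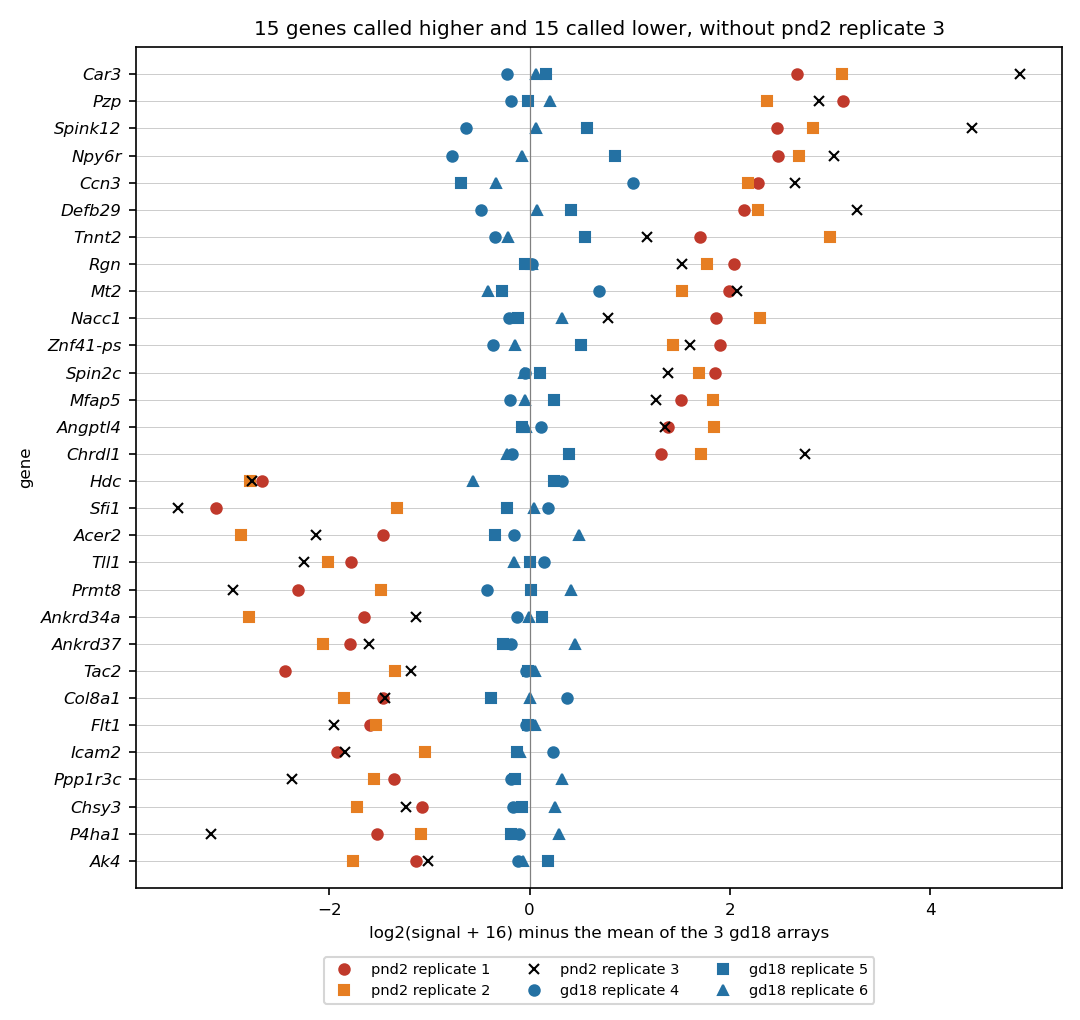
The 15 genes named as higher and the 15 named as lower at pnd2, with the log2(signal + 16) of each of the 6 arrays minus the mean of the 3 gd18 arrays. By the naming rule no pnd2 symbol crosses into the gd18 range. Replicate 3 (crosses) lies beyond replicates 1 and 2 for Car3, Spink12, Defb29, Chrdl1 and P4ha1 and nearer to gd18 for Nacc1 and Tnnt2.

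Markers of other tissues and cell types were mostly uncalled. Testis Sertoli and interstitial markers had 22 of 25 genes on the array, of which 8 passed the filter and 0 were called. Amh, the Sertoli cell hormone, read at most 17.2 on any array. The germ cell markers had 3 of 25 on the array past the filter and 0 called. Nephron markers had 1 of 7 called, which was Cdh16, a gene the Wolffian duct shares with kidney. Macrophage and leukocyte markers had 0 of 27 called, with a median of 0.00, nerve and glia markers 0 of 11, and cilia genes of the efferent ducts 0 of 6. The mesothelium list had 1 of 18 higher and 2 lower, and Lrrn4, one of those lower, had a change of -1.28 ± 0.21, all arrays -1.70. Ribosomal proteins had 1 of 42 lower, Rps6 (-1.25 ± 0.25, all arrays -1.05), and 0 higher. Replicates 1 and 2 were above all gd18 arrays for 20 of the 42 and below for 2, against 20.3% and 17.3% of all genes. The median change of these ribosomal genes was 0.16, 0.27 with all pnd2 arrays, and 0.07 under quantile normalization without replicate 3. Heat shock and unfolded protein response genes had 0 of 32 called. The Hox clusters had 1 of 22 lower, Hoxc5 (-0.60 ± 0.13, all arrays -0.28), histocompatibility and interferon genes 1 of 25 lower, Ifi27 (-0.81 ± 0.16, all arrays -0.46), and luminal transport genes 1 of 21 higher, Car3.

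**Figure D5:**
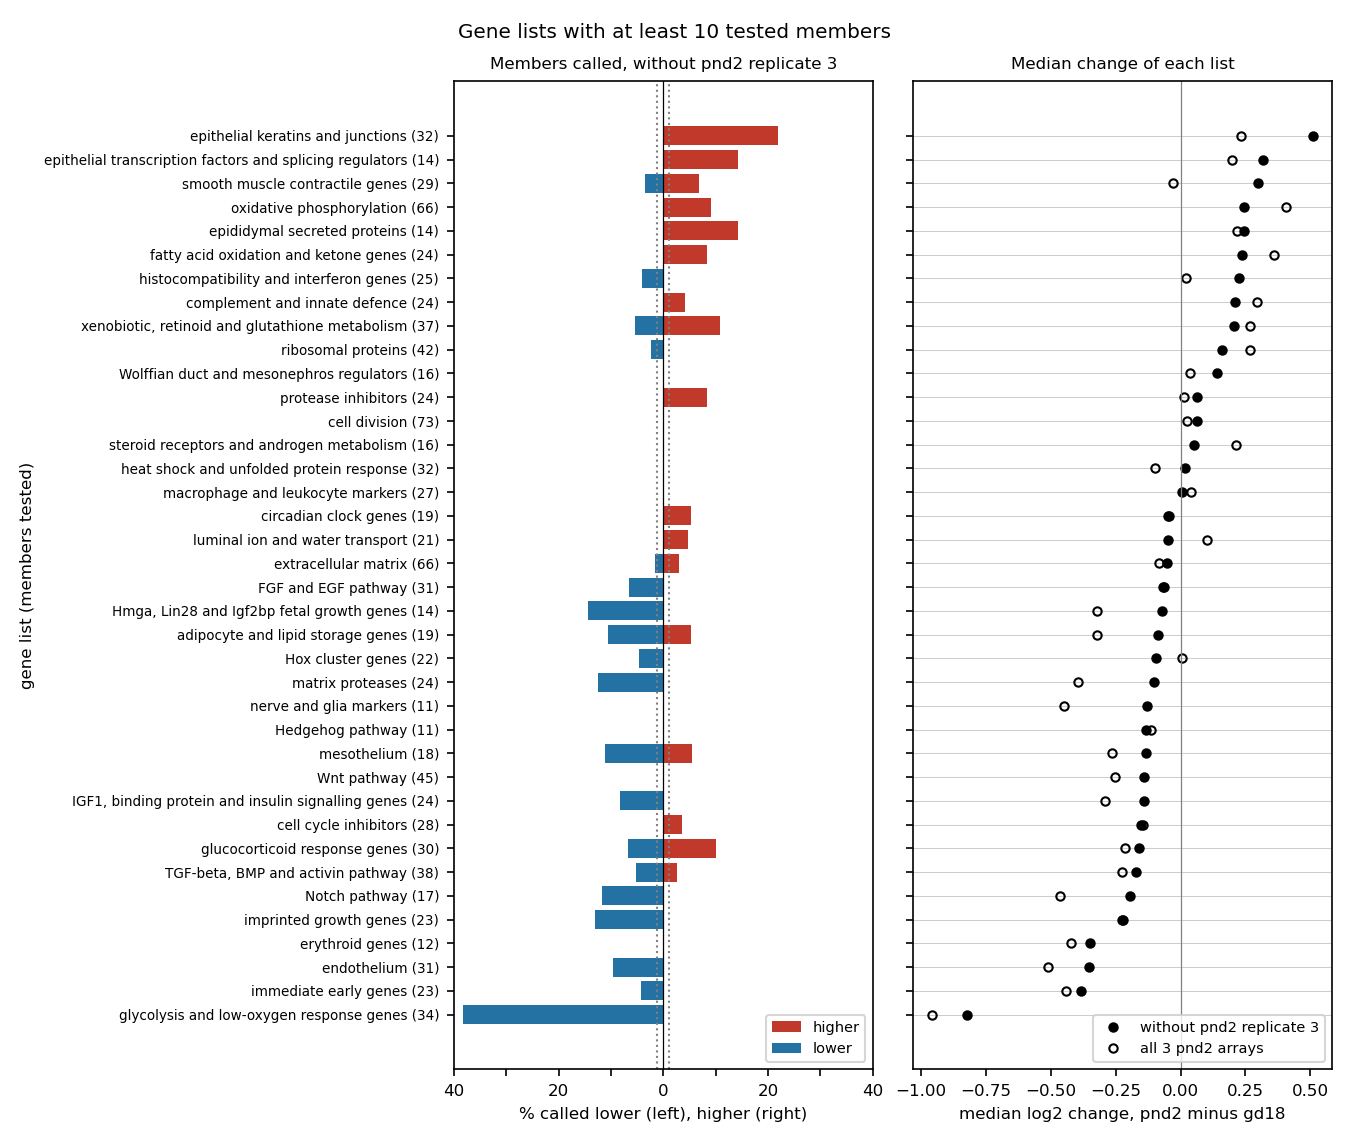
Left, the percent of tested members called higher (red) or lower (blue) at pnd2 without replicate 3, for the lists with at least 10 tested members; dotted lines give the 1.15% and 1.16% over all genes. Right, the median log2 change without replicate 3 (filled) and with all pnd2 arrays (open). The glycolysis and low-oxygen list stands lowest in both (38.2% lower, median -0.82) and the epithelial list highest on the filled symbols (0.51).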

How the data were processed

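RNA from whole epididymides was measured on Affymetrix mouse arrays, each of 45101 probe sets including 64 controls. The values are linear signal intensities as deposited by the authors, made with GCOS per the submitters' processing notes. Each array's mean, trimmed by 2% at either end, was about 500. No source used here gives its algorithm, version or detection calls, and the number of arrays limits the precision.

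Of the probe sets, 34945 have 1 gene symbol, 932 several and 9160 are not listed in the platform annotation, and only the first kind was used. A probe set was kept if it reached its array's median on at least 3 arrays, and the brightest kept probe set stood for its gene, which left 11580 genes. The constant 16 was added before log2. limma (version 3.58.1, R 4.3.3; lmFit, eBayes with trend) was fitted to the 9 single-animal arrays of gd16, gd18 and pnd2, then to the 8 arrays without pnd2 replicate 3, with Benjamini-Hochberg adjustment over all genes. Replicates are separate animals per the labels. Replicate numbers are not shared between stages.

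The members and lists were chosen with earlier results of these data known. Genes were to be named if called in both fits, with no overlap of the 6 arrays and a mean at the higher stage at or above the array medians. Clone and model numbers were passed over, and the first 15 each way by the smaller of both fits' changes were taken. That named none, so the call without pnd2 replicate 3 alone was required instead, after the data had been seen. Other genes named are list members. The fit was tested on simulated data with the spread of the gd16 and gd18 arrays, which does not include that of pnd2 replicate 3. Promoters are RefSeq's (GRCm38.p6).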

Additional observations from a re-analysis of the deposited data

How the results depend on the processing

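With all 3 pnd2 arrays, 0 genes were called, and the count was 75 in the fit to all 15 epididymis arrays, 9 with quantile normalization or without the trend, 5 with median centring, 4 with a constant of 64, 2 with the filter on every array or with the mean of a gene's probe sets, and 421 (218 higher, 203 lower) with array weights, which gave pnd2 replicate 3 a weight of 0.0509 against 1.18 to 1.82. Called genes that were on any list, each counted only 1 time, were 26, 5 (quantile), 4 (no trend), 2 (median centring), 1 (constant), 1 (filter) and 111 in these fits, against 0. These counts are named list calls below. Leaving out 1 array gave 0 to 267 genes and 0 to 78 list calls. Without pnd2 replicate 3, the 267 genes and 78 list calls became 177 genes with no filter, 53 and 17 without the trend, 40 and 16 at adjusted p under 0.01, and 98 and 37 at 2-fold or more. Leaving out a further array gave 19 to 160 genes and 5 to 46 list calls, the lowest without pnd2 replicate 2, where the lone pnd2 array is assumed to vary like the other stages. Leaving out gd16 replicate 9 gave 204 genes and 67 list calls. Scaling by the median shifted the median change of all genes to 0.10 (0.20 with all arrays), from 0.01 and -0.05. None of the 30 genes named by the rule changed direction in the settings run. Other list members were not followed gene by gene, and gd16 replicates 7 and 8 were not left out. No paired analysis was possible because the replicate numbers 1 to 3 of pnd2 and 4 to 6 of gd18 share none. The cause of these moves was not tested. Signal over background was not assessed, since detection calls were not used here.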

Other observations

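The gd16 arrays, which were used only for the spread, place both stages in a longer series. Averaged over the 34 tested glycolysis and low-oxygen genes, the log2(signal + 16) was 10.49 to 10.79 on the 3 gd16 arrays, 10.99 to 11.38 at gd18, and 10.38, 10.39 and 9.70 on pnd2 replicates 1, 2 and 3. The gd18 arrays were thus above both neighbouring stages on this list, with no overlap. The 14 tested epididymal secreted protein genes averaged 8.11 to 8.21 at gd16, 9.07 to 9.19 at gd18 and 9.34 to 9.71 at pnd2. Here each stage lay above the one before it. Neither mean was tested.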
